A study of Mus musculus with 10 samples.

Results

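Amino acid transporters are membrane proteins that carry amino acids into and out of cells, and 10 genes that encode them were followed in mouse corneal endothelium with and without Slc4a11. The members were named individually: Slc3a2, Slc7a5, Slc7a7, Slc7a8, Slc7a11, Slc7a1, Slc7a3, Slc1a5, Slc38a1 and Slc38a2. They are 10 of 55450 genes in the deposited table, all 10 were found, and all 10 had enough counts to be tested. They were selected on their log2 fold changes between the genotypes, which were already known from these same libraries, so that difference is given here as a description, without a test. The mice were C57BL/6 at 12 weeks of age with Slc4a11 intact (Slc4a11+/+, WT) or with both copies deleted (Slc4a11-/-, KO), and there were 5 libraries of each. Each library was a pool of 6 peelings from 3 mice, and SDs here measure how pools differ rather than how mice do. The labels name no Cre driver or tissue restriction for the deletion. The deleted gene, whose product moves ions across the endothelial cell membrane, ranged from 3489 to 4357 CPM in WT and from 70.1 to 114 CPM in KO, where CPM is a gene's count relative to the scaled total of its library.

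Several of these transporters work as pairs of proteins. Slc3a2 encodes the heavy chain 4F2hc, which brings a light chain to the cell surface and is held to it by a disulfide bond; the light chain does the transport. Slc7a5 (LAT1) and Slc7a8 (LAT2) are light chains that exchange large neutral amino acids, Slc7a7 (y+LAT1) exchanges cationic for neutral ones, and Slc7a11 (xCT) exports glutamate and imports cystine, which feeds glutathione synthesis. Slc7a1 (CAT1) and Slc7a3 (CAT3) carry arginine, lysine and ornithine without a heavy chain. Slc1a5 (ASCT2), Slc38a1 (SNAT1) and Slc38a2 (SNAT2) are coupled to sodium and carry small neutral amino acids, glutamine among them, and glutamine is a fuel of the corneal endothelium. Several of these genes are known targets of ATF4, a transcription factor made when amino acids run short.

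Promoter windows from RefSeq (GRCm38.p6, 250 bases before to 50 after a start) were found for 6 of the 10 members, in 11 windows: Slc3a2, Slc7a7, Slc7a8, Slc7a11, Slc7a1 and Slc38a2. They were searched on both strands for TGATGNAA, the core of the element that ATF4 and C/EBP factors bind. It was present in 2 of the 6 genes, Slc7a11 and Slc7a7, against 4.51% of the 27025 genes with windows and 3.97% of the 32851 windows. Slc7a11 held 2 matches, 1 on each strand, and Slc7a7 also held 2, of which the one at its first start lies in 2 overlapping windows. Asns (asparagine synthetase), a gene of the amino acid deprivation list described further on, is shown beside them because it carries the same letters. All are written 5′ to 3′ on the gene's strand, with the matches in capitals. Slc7a11 is shown from 90 to 21 bases before the start (chr3:50443634-50443703, minus strand), Slc7a7 from 160 to 111 bases before its first start (chr14:54418055-54418104, minus strand), and Asns over the 44 bases before its start (chr6:7693210-7693253, minus strand). The Slc3a2 stretch, from 90 to 21 bases before its start (chr19:8713918-8713987, minus strand), holds no match and is shown for contrast.
Slc7a11: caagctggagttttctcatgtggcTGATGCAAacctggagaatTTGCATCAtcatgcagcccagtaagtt
Slc7a7: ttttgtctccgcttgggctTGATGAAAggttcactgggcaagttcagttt
Asns: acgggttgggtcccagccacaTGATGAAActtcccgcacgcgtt
Slc3a2: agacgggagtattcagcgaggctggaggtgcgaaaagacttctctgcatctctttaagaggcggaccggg
TGACNNNGC, the core of the antioxidant response element that NRF2 binds, was found in 2 of the 11 windows (1 of Slc7a1 and 1 of Slc38a2) and in 12.4% of all windows. CACGTG, the E-box bound by MYC and the clock factors, was in 0 of the 11 windows and in 7.15% of all. A match of letters is a description of the window and not a bound site.

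The heavy chain gene Slc3a2 and 1 of its light chains, Slc7a5, were higher in every KO library than in any WT library. Slc3a2 (ENSMUSG00000010095.13, chromosome 19, 8706882 to 8723369, minus strand, GRCm38) stood at 329, 391, 364, 367 and 382 CPM in WT 1 to WT 5. In KO 1 to KO 5 it stood at 606, 483, 689.8, 765 and 511 CPM. KO 4 and KO 3 were the highest, and the groups did not overlap. The means were 367 ± 23.5 and 611 ± 119 CPM (SD, n = 5 each), a log2 fold change of 0.74 (SE 0.12).

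Slc7a5 had the largest difference of the 10 members. The gene (ENSMUSG00000040010.10, chromosome 8, 121881150 to 121907694, minus strand) stood at 119, 107, 91.1, 120.4 and 118 CPM in WT 1 to WT 5. It stood at 352, 219.9, 329, 503 and 225 CPM in KO 1 to KO 5. KO 4 was again the highest and KO 2 the lowest of the KO libraries, and even KO 2 was well above the highest WT library. The means were 111 ± 12.4 and 326 ± 115 CPM (SD, n = 5 each), 2.93 times higher in KO, with a log2 fold change of 1.55 (SE 0.20). The predicted gene Gm20388 spans the Slc7a5 locus on the other strand, but the annotated exons of the 2 genes share 0 bases.

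**Figure D1:**
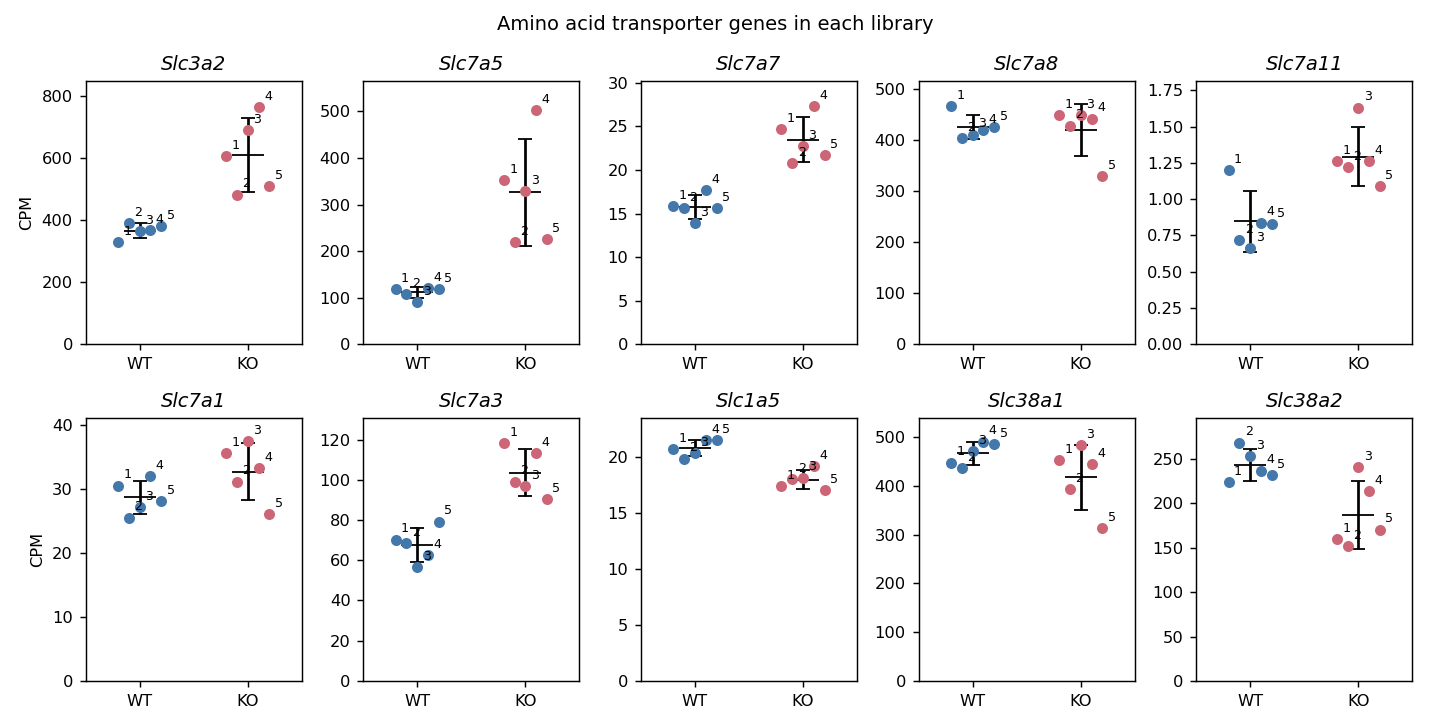
CPM of each of the 10 members (vertical axes, each starting at 0) in the WT (blue) and KO (red) libraries; small digits are replicate numbers, and black bars are the mean and SD of 5 libraries. Slc3a2, Slc7a5, Slc7a7 and Slc7a3 have all KO points above all WT points, Slc1a5 has all KO points below, and the other 5 overlap.

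The other light chains were uneven in their differences. Slc7a7 (ENSMUSG00000000958.10, chromosome 14, 54369442 to 54417780, minus strand) stood at 15.8, 15.6, 13.9, 17.7 and 15.6 CPM in WT and at 24.7, 20.8, 22.8, 27.3 and 21.7 CPM in KO. The groups did not overlap, KO 4 was again the highest, and the log2 fold change was 0.57 (SE 0.08). Slc7a7 shares 232 exonic bases with Oxa1l, a mitochondrial membrane insertase gene on the opposite strand, and no source used here says whether reads were counted by strand, so reads in that stretch are of uncertain origin. Oxa1l ranged from 26.3 to 30.3 CPM in WT and from 32.0 to 34.1 CPM in KO, without overlap. Its log2 fold change was 0.21.

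Slc7a11 was close to the lowest level that could be tested. The gene (ENSMUSG00000027737.10, chromosome 3, 49892526 to 50443614, minus strand) had between 29 and 75 counts per library, which were 1.20, 0.715, 0.660, 0.838 and 0.830 CPM in WT and 1.26, 1.22, 1.63, 1.26 and 1.09 CPM in KO. WT 1 lay among the KO libraries, and the other 4 WT libraries lay below all KO libraries. The log2 fold change was 0.62 (SE 0.19).

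Slc7a8 was nearly level between the genotypes. The gene (ENSMUSG00000022180.7, chromosome 14, 54722209 to 54781946, minus strand) stood at 466, 404, 411, 419.8 and 426 CPM in WT and at 449, 428, 448, 442 and 329 CPM in KO. Apart from KO 5, every KO library lay within the WT range. The log2 fold change was -0.021 (SE 0.086), and 0.057 without KO 5.

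Levels can be compared between genes as RPKM, the CPM divided by the length of the gene's exons in kilobases. In WT, Slc3a2 had the highest level of the 10 at 103.9 ± 6.67 RPKM, followed by Slc7a8 at 85.0 ± 4.86 RPKM (SD, n = 5 each). Slc7a5 (29.99 ± 3.34 RPKM), Slc38a2 (27.5 ± 2.02 RPKM) and Slc38a1 (27.1 ± 1.39 RPKM) came next, and neighbours among these 3 overlapped between libraries. Slc7a3 was at 17.8 ± 2.24 RPKM. Slc1a5 (4.98 ± 0.175 RPKM) and Slc7a7 (4.75 ± 0.412 RPKM) overlapped as well, Slc7a1 was at 2.49 ± 0.223 RPKM, and Slc7a11 was lowest at 0.0609 ± 0.0151 RPKM. In KO, Slc7a5 was at 87.9 ± 31.1 RPKM and overlapped with Slc7a8 at 83.8 ± 10.2 RPKM. Slc7a3 at 27.4 ± 3.08 RPKM overlapped with Slc38a1 at 24.2 ± 3.86 RPKM, which overlapped with Slc38a2 at 21.2 ± 4.33 RPKM, and Slc7a7 at 7.07 ± 0.781 RPKM lay above Slc1a5 at 4.31 ± 0.201 RPKM. The order depends on the length used: with the longest transcript of each gene in place of all its exons, Slc38a1 ranked 3 in WT at 64.3 RPKM and Slc7a5 ranked 5 at 31.6 RPKM, and in KO Slc7a8 at 103 RPKM ranked above Slc7a5 at 92.6 RPKM.

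The makeup of the light chain transcripts differed between the genotypes, from mainly Slc7a8 in WT to about equal parts of Slc7a8 and Slc7a5 in KO. Over the 6 light chain genes of Slc3a2 (Slc7a5, Slc7a6, Slc7a7, Slc7a8, Slc7a10 and Slc7a11), the summed level had a mean of 123 RPKM in WT (SD 7.51, n = 5) and of 182 RPKM in KO (SD 38.6, n = 5). Slc7a8 supplied 67.0% to 71.9% of that sum in the WT libraries and 37.4% to 55.3% in the KO libraries. Slc7a5 supplied 21.5% to 25.9% in WT and 38.3% to 57.5% in KO, so neither share overlapped between the genotypes. The ratio of the light chain sum to Slc3a2 ranged from 1.07 to 1.43 in WT and from 0.942 to 1.14 in KO, and these ranges overlapped. Slc7a6 (y+LAT2), which is no member, supplied 1.54% to 3.00% over all libraries, and Slc7a10 at most 0.0475%. These shares rest on the difference by which the members were chosen and carry no test.

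**Figure D2:**
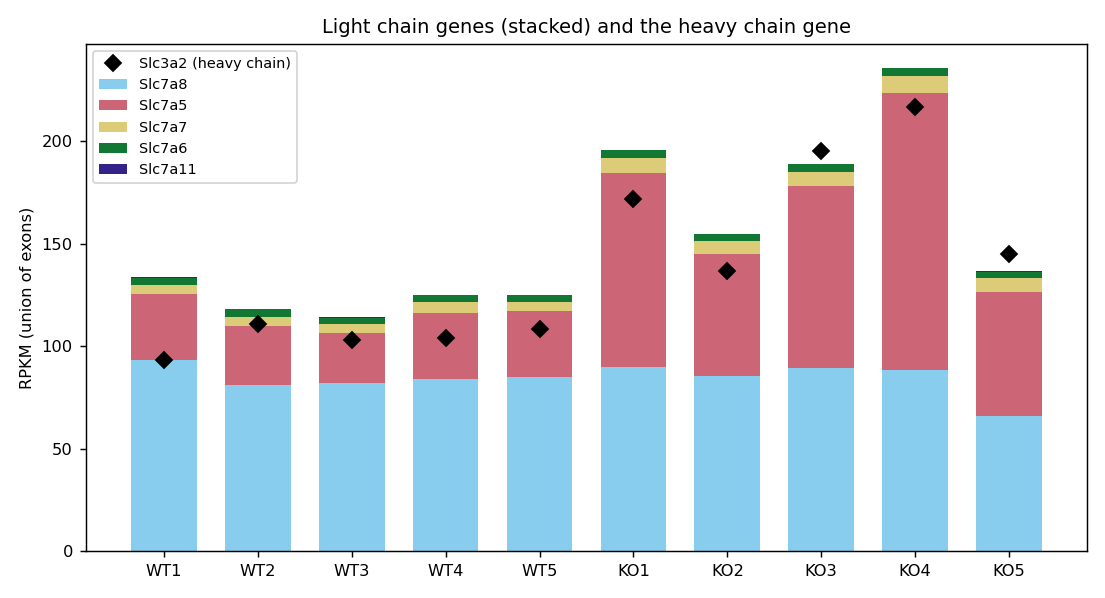
RPKM of the light chain genes, stacked for each of the 10 libraries (vertical axis from 0), with the heavy chain gene Slc3a2 as a diamond. The Slc7a8 segment is of similar height in all libraries but KO 5, while the Slc7a5 segment makes up 21.5% to 25.9% of the stack in WT and 38.3% to 57.5% in KO.

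Of the 2 cationic transporters, Slc7a3 was the one that separated the genotypes. The gene (ENSMUSG00000031297.14, chromosome X, 101079210 to 101086020, minus strand) stood at 70.3, 68.7, 56.8, 62.5 and 79.3 CPM in WT and at 118, 99.1, 97.0, 113 and 90.3 CPM in KO. The lowest KO library, KO 5, was above the highest WT library, WT 5. The log2 fold change was 0.62 (SE 0.10). Slc7a1 (ENSMUSG00000041313.14, chromosome 5, 148327410 to 148399904, minus strand), the widely expressed member of the pair, ranged from 25.5 to 31.9 CPM in WT and from 26.1 to 37.5 CPM in KO. KO 2 and KO 5 lay within the WT range for this gene, and the log2 fold change was 0.19 (SE 0.09).

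The sodium-coupled carriers of small neutral amino acids were lower in KO or overlapped. Slc1a5 (ENSMUSG00000001918.17, chromosome 7, 16781340 to 16798274, plus strand) stood at 20.7, 19.9, 20.4, 21.5 and 21.5 CPM in WT and at 17.4, 18.1, 18.2, 19.2 and 17.0 CPM in KO. The groups did not overlap, although the difference was small, with a log2 fold change of -0.21 (SE 0.05). Slc38a2 (ENSMUSG00000022462.7, chromosome 15, 96687392 to 96699730, minus strand) stood at 224, 269, 253, 237 and 232 CPM in WT and at 159, 152, 241, 214 and 171 CPM in KO. KO 3 was inside the WT range, KO 4 just under it, and KO 1, KO 2 and KO 5 far under it. The log2 fold change was -0.38 (SE 0.12). Slc38a1 (ENSMUSG00000023169.15, chromosome 15, 96571418 to 96642913, minus strand) ranged from 436 to 491 CPM in WT and from 314 to 483 CPM in KO, with KO 5 lowest and a log2 fold change of -0.16 (SE 0.10).

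In the fit across all genes (edgeR's quasi-likelihood F test, called where p after Benjamini-Hochberg adjustment was under 0.05), 5 of the 10 members were called higher in KO (Slc3a2, Slc7a5, Slc7a7, Slc7a11 and Slc7a3), 1 lower (Slc1a5) and 4 were not called. Over all 17729 genes tested, 7.59% were called higher and 7.73% lower, and nothing is read from the members' counts because the members were chosen with this contrast known. The ranges of the genotypes were separate for 5 members, against 12.0% of all genes tested; KO was above WT for 4 (5.88% of all genes) and below for 1 (6.16%). The median log2 fold change was 0.38 over the members and 0.00 over all genes tested. Slc7a11 was not called when any single library but WT 1 or KO 5 was left out, and Slc1a5 was not called without WT 4, WT 5 or KO 1. Slc38a2 was called lower without KO 3 (log2 fold change -0.48), and Slc7a1 higher without KO 5 (0.26).

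Transcripts of corneal epithelium differed between the same libraries, and the peelings are bulk samples, in which fewer cells of a type and less RNA per cell cannot be told apart. Where 7.59% of all genes tested were called higher and 7.73% lower, 15 of 20 epithelial markers were called higher in KO and 0 lower. Their summed level ranged from 3963 to 5330 CPM in WT and from 5057 to 10987 CPM in KO, most of it from Aldh3a1, a crystallin-like enzyme of the cornea. Without Aldh3a1, the sum was 63.4 CPM in KO 3 and 305 CPM in KO 4, against 66.3 to 259 CPM in WT, and 748, 2607 and 4747 CPM in KO 2, KO 1 and KO 5. None of the 20 was at 0 in all libraries, and in KO 3 the keratins Krt5 and Krt12 were still at 2.69 and 2.87 CPM. The 12 keratocyte markers summed to 64887 to 99647 CPM in WT and 66879 to 89471 CPM in KO, and the 12 endothelial markers to 37265 to 41782 CPM in WT and 32320 to 38854 CPM in KO, with KO 5 lowest, so the labelled tissue's markers were present in every library. In each of these 2 lists 0 were called higher and 2 lower, Kera and Ptgds of the keratocyte list and Slc4a11 and Atp1b1 of the endothelial list. The endothelial sums include the deleted Slc4a11 itself, at 3489 to 4357 CPM in WT and 70.1 to 114 CPM in KO. Its loss lowers the KO sums. Schwann cell and nerve markers, 6 of 8 called higher, summed to 60.6 to 69.3 CPM in WT and 85.7 to 122 CPM in KO, and macrophage markers (1 of 12 called higher) to 303 to 456 CPM and 376 to 612 CPM. Blood vessel markers (2 of 7 tested called higher and 1 lower) summed to 102 to 153 CPM in WT and 81.9 to 104 CPM in KO, red blood cell markers (1 of 5 tested called lower) to 16.3 to 87.5 and 4.19 to 27.1 CPM, and pigment cell markers (0 of 4 tested called) to 11.4 to 17.3 and 13.3 to 24.7 CPM. The part of these cells in the members' differences was not tested.

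Slc7a5, Slc3a2 and Slc7a7 were highest in KO 4, where the epithelial sum without Aldh3a1 was 305 CPM, above every WT library and below KO 1, KO 2 and KO 5. When WT was set against KO 3 and KO 4 alone, the difference on the log2 scale was 1.91 (SE 0.15) for Slc7a5, 0.99 (SE 0.09) for Slc3a2, 0.67 (SE 0.11) for Slc7a7 and 0.64 (SE 0.12) for Slc7a3, each at least as large as with all KO libraries. The same epithelial sum was 2607 CPM in KO 1 and 63.4 CPM in KO 3. KO 1 differed more from the WT mean than KO 3 for Slc7a5 (1.67 against 1.57), Slc7a7 (0.65 against 0.54) and Slc7a3 (0.82 against 0.53). It differed less for Slc3a2 (0.73 against 0.91). KO 2 and KO 5 had sums of 748 and 4747 CPM. Both differed less than KO 3 for Slc7a5 (0.99 and 1.03), Slc7a7 (0.41 and 0.47) and Slc3a2 (0.40 and 0.48). For Slc7a3, KO 2 was above KO 3 (0.56) and KO 5 below it (0.43). The part of epithelial transcripts in these differences was not tested. In the fit with KO 3 and KO 4 only, 2.86% of 18435 genes were called higher, Slc7a5, Slc3a2, Slc7a7 and Slc7a3 among them. KO 3 and KO 4 were also the highest libraries for Slc3a2, and KO 4 was the highest for Slc7a5 and Slc7a7. The larger differences of these genes follow in part from that. The members were chosen on a difference over libraries that include KO 3 and KO 4. Nothing is therefore read from the calls or sizes in this fit. Slc38a2 was at -0.090 (SE 0.089), Slc1a5 at -0.15 (SE 0.08) and Slc38a1 at -0.0026 (SE 0.086) there, and 0 members were called lower, against 3.14% of all genes. Slc38a2 was lowest in the 3 KO libraries with the most epithelial transcripts, at log2 differences of -0.60, -0.67 and -0.51 from the WT mean in KO 1, KO 2 and KO 5, against -0.18 in KO 4 and -0.010 in KO 3. KO 1, KO 2 and KO 5 were also the lowest KO libraries for Slc1a5 and Slc3a2. Slc1a5 was at -0.26, -0.20 and -0.29 in them, against -0.11 in KO 4 and -0.19 in KO 3. Slc3a2 was at 0.73, 0.40 and 0.48, against 1.06 and 0.91. For Slc38a1, KO 1 (-0.042) was above KO 4 (-0.068).

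**Figure D3:**
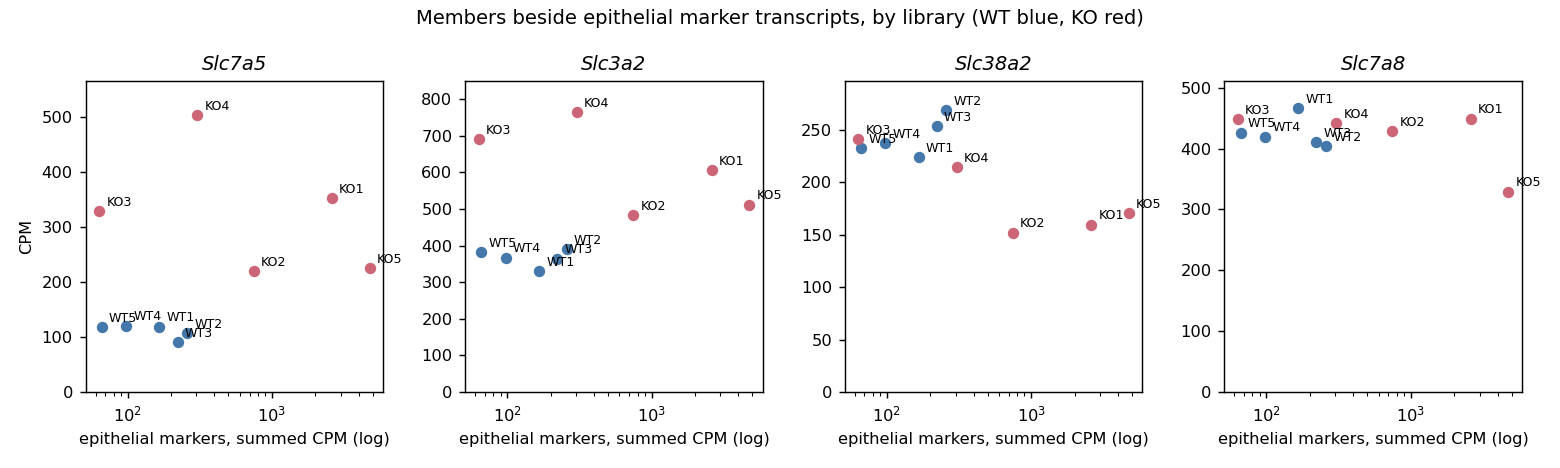
CPM of Slc7a5, Slc3a2, Slc38a2 and Slc7a8 (vertical axes from 0) against the summed CPM of 19 epithelial markers without Aldh3a1 (horizontal axes, log scale), 1 point per library, WT blue and KO red. KO 3 and KO 4 lie at 63.4 and 305 on the horizontal axis and have the highest Slc3a2 levels, and KO 1, KO 2 and KO 5 lie at 748 or more and have the lowest Slc38a2 levels.

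**Figure D4:**
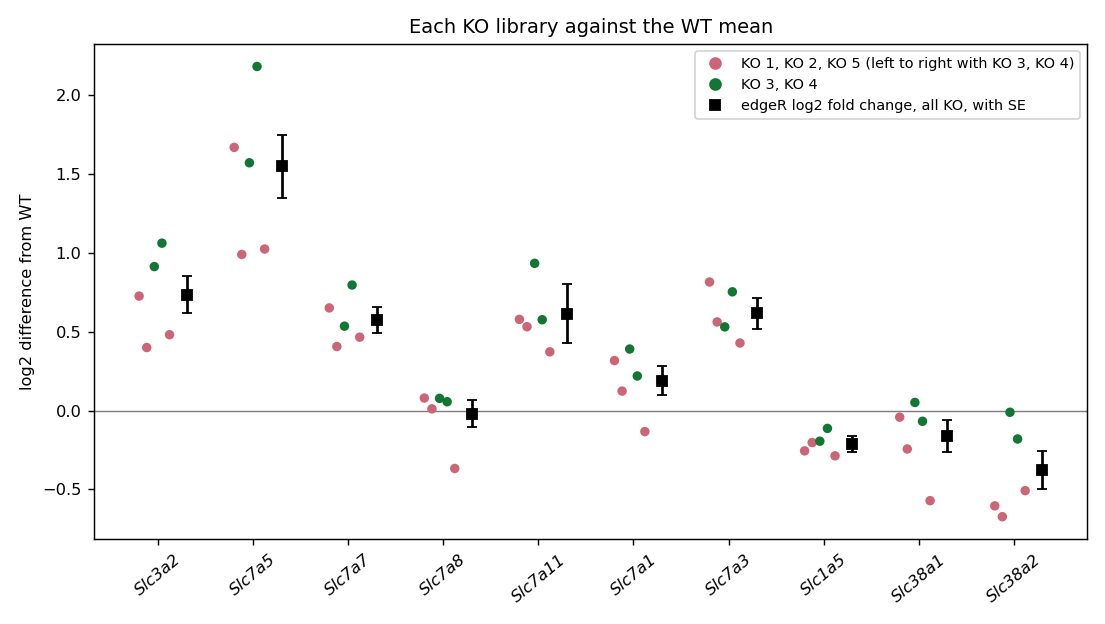
Log2 difference of each KO library from the WT mean (circles, KO 1 to KO 5 from left to right, KO 3 and KO 4 green) for the 10 members, with the edgeR log2 fold change and its SE (square). For Slc7a5 all KO libraries lie between 0.99 and 2.18, while for Slc38a2 KO 3 lies at -0.010 and KO 2 at -0.67.

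Within the genotypes the members did not vary as 1 group. After each genotype's mean was taken out, the log2 CPM of Slc7a5 over the 10 libraries went with that of Slc7a7 (Pearson r = 0.89) and Slc3a2 (r = 0.83), Slc7a1 with Slc38a1 (r = 0.88) and Slc7a8 (r = 0.85), and Slc3a2 with Slc38a2 (r = 0.80). Slc38a2 and Slc7a3 were at r = -0.13. Among the 10633 genes whose mean reached 5 CPM, those most like Slc7a5 by this measure were Pdpn (podoplanin, r = 0.96), Ilvbl (r = 0.95) and Ppp1r37 (r = 0.95). Zranb3 (r = 0.95) and Cpeb1 (r = 0.94) were most like Slc3a2, and those most like Slc38a2 were Ajuba (r = 0.97), Rin1 (r = 0.96) and Prrg1 (r = 0.96). These are descriptions over 10 libraries that share depth and cell makeup, and the highest of 10633 values each. Each r pools both genotypes, and the KO libraries can carry it where they spread more widely. Log2 differences from the WT mean ran from -0.28 to 0.12 in WT and from 0.99 to 2.18 in KO for Slc7a5. For Slc3a2 they ran from -0.15 to 0.094 and from 0.40 to 1.06. WT 1 was the lowest WT library for Slc3a2 (-0.15) but above the WT mean for Slc7a5 (0.11).

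The other amino acid transporters were called about as often as genes in general. The list held 53 other genes for plasma membrane, vesicular and lysosomal carriers of amino acids, of which 28 had enough counts to be tested and 8 had 0 counts in all libraries. In KO 1 rose, 3 fell and 24 did not pass, where 15.3% of all genes tested were called in either direction, and the median log2 fold change was -0.10. Slc43a2 (LAT4), a carrier that lets large neutral amino acids out of the cell, rose from 7.41 ± 1.12 to 10.6 ± 1.46 CPM (SD, n = 5 each; log2 fold change 0.52, SE 0.12, edgeR adjusted p = 0.016). Slc36a4 (PAT4), a high-affinity carrier of proline and tryptophan, went from 96.2 ± 2.75 CPM in WT down to 72.8 ± 6.64 CPM in KO without overlap (SD, n = 5 each; log2 fold change -0.40, SE 0.06, edgeR adjusted p = 0.0017). The glutamate carriers Slc1a6 (-0.48, SE 0.13, edgeR adjusted p = 0.033) and Slc1a2 (-0.38, SE 0.12, edgeR adjusted p = 0.046) also fell. With KO 3 and KO 4 only, Slc36a4 was still called (-0.37) and the other 3 were not. The count of falls was 1 without WT 5, KO 1 or KO 2, and the count of rises was 2 without WT 5 or KO 4.

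Of the 3 most abundant of these other carriers, Slc36a4 fell, as given above, and the other 2 did not pass. Slc38a10 averaged 329 ± 17.4 CPM over the WT and 299 ± 10.8 CPM over the KO libraries (SD, n = 5 each; edgeR adjusted p = 0.11), and the taurine transporter Slc6a6 at 373 ± 45.8 and 314 ± 40.6 CPM (edgeR adjusted p = 0.13). Slc6a14, a carrier of neutral and cationic amino acids of epithelia, and the glutamate carrier Slc1a1 varied widely among the KO libraries and are named after their values were seen. Slc6a14 ranged from 5.41 to 24.5 CPM in WT and stood at 42.4, 27.1, 1.69, 6.17 and 35.4 CPM in KO 1 to KO 5. Slc1a1 ranged from 3.27 to 11.8 CPM in WT and stood at 15.6, 13.4, 1.15, 3.84 and 22.1 CPM in KO. For both, KO 1, KO 2 and KO 5, with the most epithelial transcripts, were above every WT library, KO 3 was below every WT library, and KO 4 was within the WT range.

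**Figure D5:**
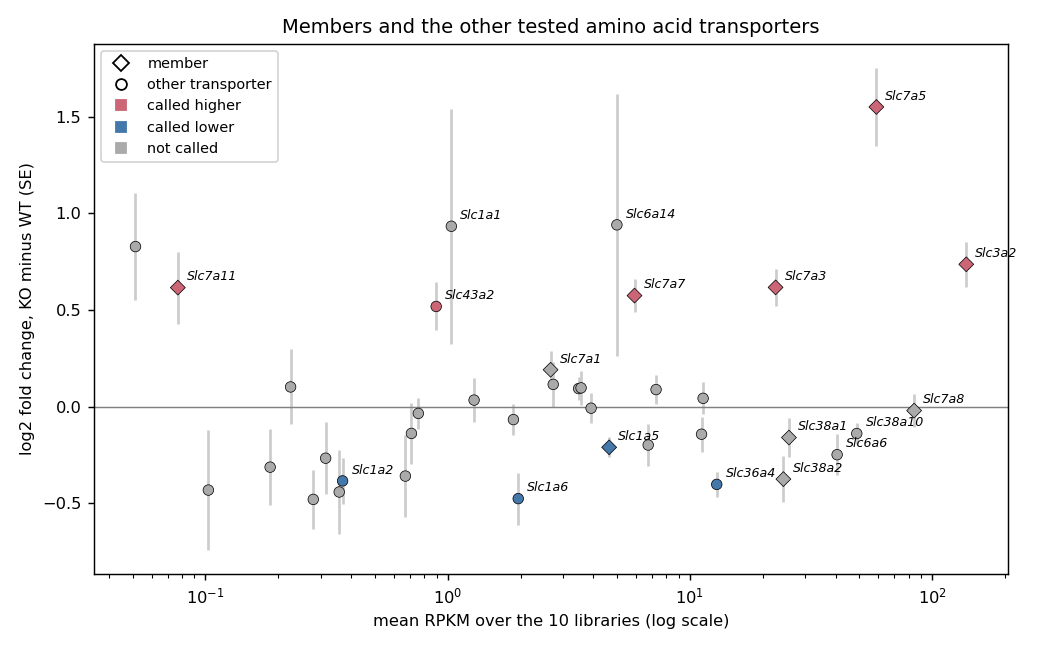
Log2 fold change between KO and WT with its SE (vertical axis) against the mean RPKM over the 10 libraries (horizontal axis, log scale) for the 10 members (diamonds) and the 28 other tested amino acid transporters (circles), red where called higher, blue where called lower, grey where not called. The members were chosen with the vertical values known; among the other transporters 1 is red and 3 are blue.

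The synthetase genes that were called differed by small amounts. Of the 20 cytosolic aminoacyl-tRNA synthetases, which load amino acids onto tRNA, 5 rose, 1 fell and 14 did not pass, with a median log2 fold change of 0.12. Over all genes tested, 7.59% were called higher and 7.73% lower. Cars rose by 0.37 (SE 0.07, edgeR adjusted p = 0.0051), Kars by 0.28 (SE 0.05, edgeR adjusted p = 0.0060) and Aars by 0.31 (SE 0.08, edgeR adjusted p = 0.017). The others that rose were Gars and Farsb, named after their values were seen, and Lars fell by 0.21 (SE 0.06, edgeR adjusted p = 0.025). The count of rises was 3 without WT 3, WT 5 or KO 5, and Lars was not called without WT 2, WT 5 or KO 2. With KO 3 and KO 4 only, Kars alone was called (0.34). TGATGNAA was present in 5 of the 12 synthetase genes with windows, Aars, Gars, Iars, Tars and Yars, against 4.51% of genes with windows. Aars and Gars rose, while Iars, Tars and Yars were not called, and a link of the motif to the change was not tested.

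In the amino acid deprivation list, of factors and targets of the ATF4 response, 3 of 16 rose, 1 fell and 12 did not pass, with a median of 0.09. The shares over all genes tested were 7.59% higher and 7.73% lower. Asns, which makes asparagine from aspartate and glutamine, rose from 11.1 ± 1.92 to 18.4 ± 2.41 CPM (SD, n = 5 each; log2 fold change 0.73, SE 0.13, edgeR adjusted p = 0.0027). The stress factor Atf3 rose from 0.525 ± 0.0830 to 1.06 ± 0.216 CPM (edgeR adjusted p = 0.0046) and the chromatin protein gene Nupr1 from 485 ± 56.0 to 640.0 ± 50.4 CPM (edgeR adjusted p = 0.011). Psat1, an enzyme of serine synthesis, fell from 281 ± 48.6 to 173 ± 20.5 CPM (edgeR adjusted p = 0.0024). Atf4 itself was at 0.20 (SE 0.08, edgeR adjusted p = 0.13). Each of the 3 that rose holds TGATGNAA in its window, as do Trib3 and Chac1, which did not pass, and Psat1 does not. The motif was in 5 of 16 genes of this list, against 4.51% of genes with windows, and the list holds ATF4 targets. A link of the motif to these changes was not tested. Without KO 3, 5 rose and 2 fell, and without KO 5, 2 fell. With KO 3 and KO 4 only, Asns (0.84), Atf3 (1.14) and Psat1 (-0.68) were called and Nupr1 was not.

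Of 33 genes of the growth kinase complex mTORC1, its activation and its amino acid sensing, 4 rose, 5 fell and 24 did not pass, with a median of 0.00. Among all genes tested, 7.59% were called higher and 7.73% lower. Rraga, a Rag GTPase that carries mTORC1 to the lysosome, rose by 0.22 (SE 0.05, edgeR adjusted p = 0.011), Castor2 by 0.33 (SE 0.08, edgeR adjusted p = 0.016) and Itfg2 by 0.29 (SE 0.07, edgeR adjusted p = 0.019). Fnip1, a partner of folliculin, fell by 0.43 (SE 0.09, edgeR adjusted p = 0.0092), the Rag GTPase Rragd by 0.47 (SE 0.11, edgeR adjusted p = 0.017) and Seh1l by 0.21 (SE 0.05, edgeR adjusted p = 0.017). Without WT 3, WT 5, KO 2 or KO 5 the count of falls was 3, and with KO 3 and KO 4 only it was 0. None of Rraga, Castor2 and Itfg2 was called with KO 3 and KO 4 only, and the 1 rise there was Sesn2 (0.43, edgeR adjusted p = 0.026), a leucine sensor gene that was not called with all KO libraries and is named after its value was seen. Of 12 genes of glutathione synthesis and turnover, 1 rose, 1 fell and 10 did not pass, with a median of 0.05, beside the same shares over all genes. Ggt7 rose by 0.49 (SE 0.11, edgeR adjusted p = 0.014) and the aminopeptidase Anpep fell by 0.35 (SE 0.06, edgeR adjusted p = 0.0027). Neither was called with KO 3 and KO 4 only, and 2 rose without WT 1.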

How the data were processed

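The authors deposited 1 table of unnormalised read counts by gene, and its 10 columns were matched to samples by name. Per the submitters' processing notes, the genome was GRCm38.p6, and featureCounts, Subread 1.6.4, HISAT2 2.1.0, Trim Galore 0.6.4 and cutadapt 2.4 were the tools. Per the labels' protocols, libraries were made from 100 ng of RNA with a stranded kit for polyadenylated RNA and 12 PCR cycles. No source used here gives the annotation release, the strand setting or the handling of multimapping reads.

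All 55450 identifiers matched GENCODE vM21, which gave symbols, coordinates and exon lengths. Totals were 36026193 to 51008996 counts per library, with a common biological coefficient of variation of 16.3%. With edgeR 4.0.16 in R 4.3.3, 17729 genes passed filterByExpr (minimum count 10, minimum total 15), and libraries were scaled by TMM. KO was tested against WT by the quasi-likelihood F test, with no covariate. P-values were adjusted by Benjamini-Hochberg over all genes tested, and genes under 0.05 were called. The fit was tested on simulated data. Log2 CPM used a prior count of 2.

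Members and lists were chosen with earlier results of these data known. Genes named were the members, up to 3 called genes with the smallest p per direction in each list, the 3 most abundant other transporters, and the 3 genes most like each member. Of these last, those of Slc7a5, Slc3a2 and Slc38a2 are given, except 1 gene that is not reported here. Promoter windows are from RefSeq. Alternatives were other scalings, DESeq2 1.42.0, limma-voom (limma 3.58.1), other filters, covariates for epithelial or keratocyte markers, the replicate number as a block, libraries left out and a stricter threshold. Every pair of libraries within a genotype differed beyond sampling noise (chi-square over its degrees of freedom from 14.5 to 86.0). Nothing in the labels says that replicate numbers pair the pools.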

Additional observations from a re-analysis of the deposited data

Results flagged for a closer look

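In 64 groups of 5 libraries screened, the lowest or highest value stood apart from the rest by more than Dixon's 95% criterion in 3, each time in KO 5. Slc7a8 stood at 329 CPM in KO 5, with the nearest KO library at 428 CPM. Rragd stood at 10.5 CPM in KO 5, against 13.8 CPM in the nearest, and Slc38a10 at 280.4 CPM, against 299.8 CPM. Chance alone gives such a gap in about 1 of 20 groups, or 3.2 of the 64. KO 5 also had the most epithelial and the fewest endothelial marker transcripts, and their part in these values was not tested.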

How the results depend on the processing

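Slc3a2, Slc7a5, Slc7a7 and Slc7a3 were called higher under every alternative run, with Slc7a5 between 1.34 and 1.67 and Slc3a2 between 0.64 and 0.81 on the log2 scale when single libraries were left out. The count of members called higher stayed between 4 and 6 and the count called lower between 0 and 2 with single libraries left out. Members called lower were 0 with total counts, the replicate block, the epithelial covariate, KO 3 and KO 4 only or adjusted p under 0.01, and 2 with DESeq2, limma-voom or no filter. With the keratocyte covariate the count was 1, but the gene was Slc38a2 (edgeR adjusted p = 0.031) and not Slc1a5 (0.077). Slc7a11 was not called with no filter (edgeR adjusted p = 0.081), the replicate block (0.098), KO 3 and KO 4 only (0.11) or adjusted p under 0.01. Slc7a8, which was not called in any setting, changed sign to 0.0067 with total counts, 0.069 with the epithelial covariate, 0.039 with the keratocyte covariate and 0.071 with KO 3 and KO 4 only, and ranged from -0.045 to 0.057 with single libraries left out (0.017 without WT 1 and 0.057 without KO 5). Same-numbered WT and KO libraries did not deviate together (r from -0.42 to 0.09, and 0 of 5 correlated best with their own number), so the replicate block has no support in the labels or the data; the cause of each change given here was not tested.

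Over all genes, rises were 750 with the replicate block, 598 with the epithelial covariate, 897 with the keratocyte covariate, 527 with KO 3 and KO 4 only and 450 at adjusted p under 0.01, against 1346. Falls were 721 with the epithelial covariate, 578 with KO 3 and KO 4 only and 574 at adjusted p under 0.01, against 1370. Leaving out single libraries gave 836 to 1532 rises and 965 to 1666 falls; rises were 836 without WT 3, 850 without WT 5 and 895 without KO 1.

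Among the other transporters, rises were 0 with the replicate block, the epithelial covariate, KO 3 and KO 4 only or adjusted p under 0.01 (1 to 2 with single libraries left out). Falls were 1 with total counts, the replicate block, either covariate, KO 3 and KO 4 only or adjusted p under 0.01, 5 with DESeq2, and 1 to 4 with single libraries left out. Synthetase rises were 8 with total counts, 3 with the replicate block, 2 with the epithelial covariate or at adjusted p under 0.01, 1 with KO 3 and KO 4 only, and 3 to 7 with single libraries left out. Synthetase falls were 0 with total counts, the keratocyte covariate, KO 3 and KO 4 only or adjusted p under 0.01, and 0 to 1 with single libraries left out. For mTORC1 genes, rises were 1 with the replicate block or KO 3 and KO 4 only, 2 with either covariate, 0 at adjusted p under 0.01 and 3 to 5 with single libraries left out. Falls were 2 with total counts, 3 with the replicate block or the keratocyte covariate, 0 with the epithelial covariate or KO 3 and KO 4 only, 1 at adjusted p under 0.01 and 3 to 5 with single libraries left out. For the deprivation list, falls were 2 with DESeq2 or limma-voom, and single libraries left out gave 3 to 5 rises and 1 to 2 falls. For glutathione genes, rises were 2 with DESeq2, the CPM filter or the replicate block, 0 with the keratocyte covariate, KO 3 and KO 4 only or adjusted p under 0.01, and 1 to 2 with single libraries left out; falls were 0 with KO 3 and KO 4 only and 1 when any single library was left out. Depth was lowest among the 10 members for Slc7a11, with 29 to 75 counts per library.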
